A study of Drosophila melanogaster with 19 samples.

Results

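The genes described here were those highest in arrested spermatocyte cysts of always early (aly) mutants of Drosophila melanogaster. They were chosen from the authors' table of stage values by requiring an aly value of at least 8 RPKM (reads scaled to gene length in kilobases and to library size) and a value plus 1 at least 4 times that of every other stage. A further 18 rows met this but were left out by their symbols (numbered noncoding RNAs, snoRNAs, a cuticle protein, odorant, taste and ionotropic receptors, odorant binding proteins, and Pxn), which left 173 of 12810 genes. The aly values therefore chose the genes, and the levels in aly against the other stages are given as a description, with no test.

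The libraries were made from germ cell cysts picked by needle from torn testes, a cyst being a clone of germ cells wrapped by somatic cyst cells. The labels give 2 libraries of arrested spermatocyte cysts from aly, which are set against 2 of the niche (the testis tip with the germline stem cells), 2 of gonialblasts (GB) and 5 of spermatogonia, of which S4 (4 cells) and S8 (8 cells) have 2 each and S16 (16 cells) has 1. Spermatocytes outside the mutant gave 3 libraries of early cysts (EC) and 2 sets of late cysts, LC1 with 3 libraries and LC2 with 2. The labels give neither the aly allele nor the genotype of the other stages, nor the age of the flies, and name the testis and germline stem cells as tissue and cell type for every library. The number of cysts or animals behind a library was not given in the sources used here, so p-values measure only the spread between these libraries.

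Each stage value is the authors' mean. Reads of single libraries were recovered from these means for 12784 genes, including all 173 chosen ones, each up to a factor common to all libraries. The recovery was set to 20 libraries, 1 more than labelled, with 3 for LC2, and no result with 2 for LC2 is given here. The fit counts all 3, so p-values with LC2 rest on 1 library more than the labels list, and whether it is a repeat run of another is not known. Libraries are lettered a, b and c by depth. The 2 aly libraries were the deepest and the fourth deepest of the 20 by recovered reads, with 5337856 and 3943457, against 858576 to 4649458 in the others. They held reads of 12398 and 11825 genes, against 10054 to 12265 genes in spermatocyte libraries of the other stages and 6873 to 7806 from the niche to S16. No library held more than 1 read per base of any gene, so that abundant genes are compressed. Genes above 0.5 reads per base made up 11.4% and 5.50% of genes in the aly libraries, against 0.681 to 13.6% in the others. The part of depth and of this compression in the values below was not tested.

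aly encodes a subunit of the testis meiotic arrest complex, which turns on the genes of late spermatocytes and spermatids. In aly mutants the primary spermatocytes grow but neither divide nor differentiate. Among the marker genes named with this group, en (engrailed) is a homeodomain transcription factor of posterior compartments, wg (wingless) is a Wnt ligand secreted by neighbouring cells in the embryo, and trpl is a cation channel of the photoreceptor membrane.

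The aly gene itself had 33.4 and 30.4 RPKM in aly libraries, against 63.0 to 138 RPKM in EC and 42.3 to 70.2 RPKM in late libraries. It was lower in aly than in EC cysts by limma (log2 difference -1.59 ± 0.44 (SE), adjusted p = 0.0175), a call that was lost with either aly library left out. RNA of the gene was present, so the level does not tell which allele was used. The white gene w, an eye pigment transporter, had 0 and 0.12 RPKM in the aly libraries, against 0.75 to 50.5 RPKM in the 18 others. It was 1 of 2 genes with a value plus 1 at least 16 times lower in aly than in EC, LC1 and LC2, a criterion chosen after the values were seen. A difference of strain between the aly flies and the others and an effect of the mutation cannot be told apart.

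The aly cysts carried the RNA of spermatocytes. The 11 markers for spermatocyte regulators (aly, topi, tomb, comr and others) summed to 912 and 1021 RPKM in the aly libraries, against 615 to 1366 RPKM in EC and 663 to 943 RPKM in late libraries, and each was detected. The 5 early germline markers summed to 155 RPKM in each aly library, against 244 to 502 RPKM in EC and 60.2 to 184 RPKM in late libraries.

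The 173 genes had a median of 19.98 RPKM in aly, with a range of 8.10 to 101 RPKM. Their median was 0.704 RPKM in EC, 1.03 in LC1 and 0.640 in LC2, and 0 in each stage from the niche to S16. Summed over all 173, they reached 5027 and 4254 RPKM in the aly libraries, against 194 to 357 RPKM in EC libraries, 151 to 309 RPKM in late libraries and 23.7 to 61.6 RPKM in the libraries from the niche to S16. Each gene had more in both aly libraries than in any of the 18 others, which the rule nearly fixes. Over all genes this held for 10.5%.

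**Figure D1:**
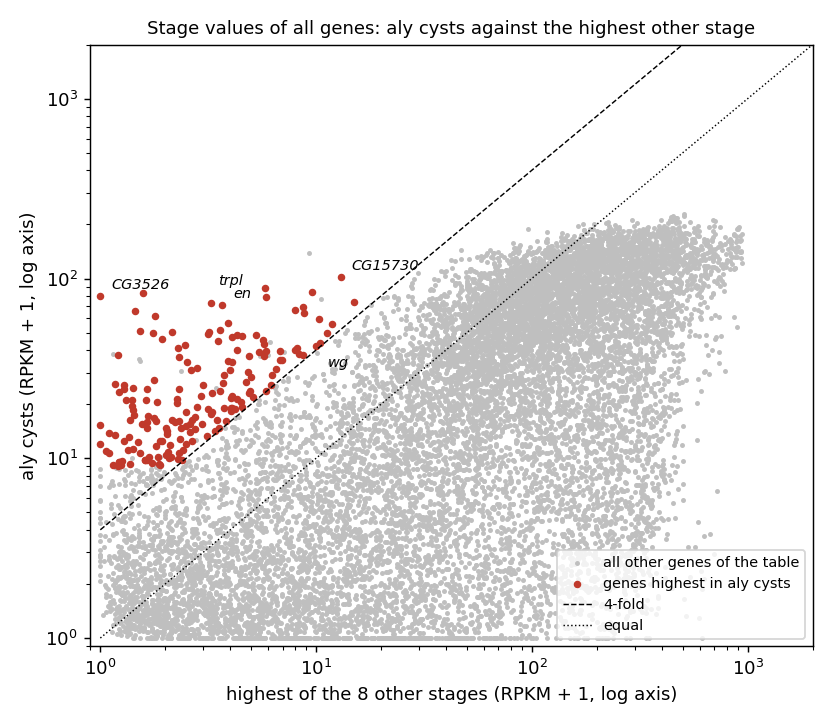
Stage value in aly cysts (RPKM plus 1, log axis) against the highest of the 8 other stages (RPKM plus 1, log axis) for every gene of the table. The 173 genes (red) lie on or above the 4-fold line at aly values of 8.10 to 101 RPKM, and wg lies just under it.

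Outside aly, most of these genes were not detected before the spermatocyte stages. Of the 173, 105 (60.7%) were listed at 0 in all of niche, GB, S4, S8 and S16, and 803 of the 7636 genes (10.5%) with an aly value of at least 8. The rule held these stages at least 4-fold under aly, so that an excess of zeros is built into the choice and nothing is read from it. In early and late spermatocytes most had a few reads. They were listed at 0 in EC for 38 genes, in LC1 for 11 and in LC2 for 24. The highest of the other stages was LC1 for 66 genes, EC for 48 and LC2 for 38, and a stage from the niche to S16 for 18. Only CG3526, CG11159 and CG43181 were listed at 0 in every other stage. CG11159 had 23.3 and 5.36 RPKM in the aly libraries, from 75 and 12 reads. It overlaps Lrt, on the other strand, which had an aly value of 16.0 RPKM. CG43181 rested on 33 and 16 reads in the aly libraries.

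**Figure D2:**
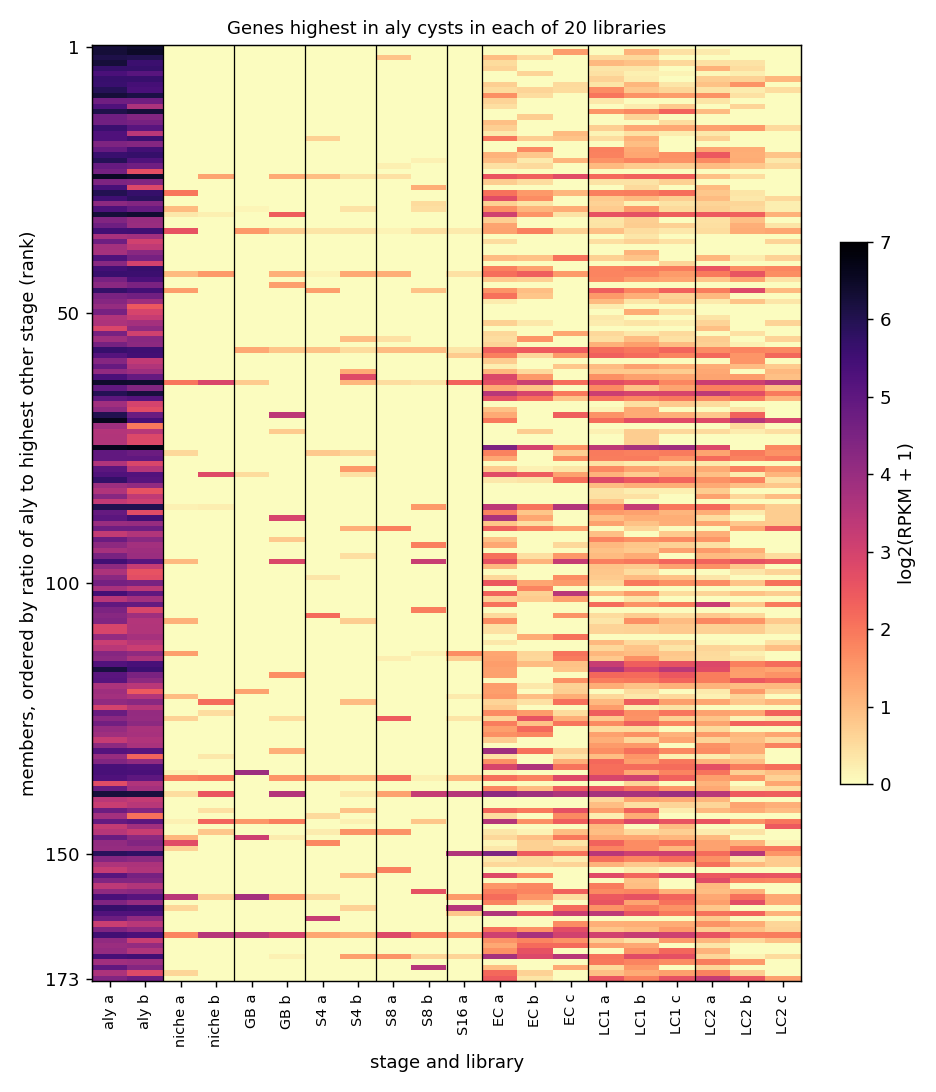
log2(RPKM + 1) of the 173 genes (rows, ordered by the ratio of aly to the highest other stage) in each of the 20 recovered libraries (columns, grouped by stage). Both aly libraries are dark over the whole height, the libraries from the niche to S16 are mostly at 0, with 11 to 25 of the 173 genes detected, and EC, LC1 and LC2 libraries are pale, with 78 to 154 detected.

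The most abundant in aly was CG15730, whose current symbol is Mks1, a component of the ciliary transition zone. It had 96.8 and 105 RPKM in the aly libraries, against 2.10 to 21.3 RPKM in EC, 9.45 to 13.9 RPKM in LC1 and 0 to 6.19 RPKM in LC2 libraries. CG6201 (Idua, named for a lysosomal enzyme of glycosaminoglycan breakdown) followed with an aly value of 87.5 RPKM. Next came CG10933 (Dlish, an SH3 protein of Fat signalling) with 83.1, the mucin gene Muc4B with 81.7, CG3526 with 78.6, and Tusp, a tubby-related gene, with 77.8 RPKM. CG3160 (PGAP1, named for an enzyme that remodels lipid anchors of membrane proteins) had 73.1, trpl 71.8, en 70.2, CCHa1 68.6, GABA-B-R1 66.2 and CG1461 (Tat, tyrosine aminotransferase) 65.1 RPKM. The aly libraries agreed within 2-fold for each of these except CCHa1.

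By the ratio that the rule used, (aly + 1) over (highest other stage + 1), CG3526 came first at 79.6. It lies on X (2890768 to 2894232 in BDGP6.54) and had 74.9 and 82.3 RPKM in the aly libraries, from 441 and 337 reads. None of the 18 other libraries held a read of it, where 3 reads would have been 0.675 to 2.69 RPKM. Muc4B (ratio 52.4), CG1461 (45.8), Cad99C (34.6), CG9377 (33.5), CG18437 (31.2), Tk (28.4) and CG42284 (23.8) followed. CG18437 is now called unc80 and belongs to the sodium leak channel complex. Each of these 7 had no read in niche and GB libraries. CG42284 overlaps CG30271 on the same strand, which had an aly value of 120 RPKM, so its reads may in part be those of its neighbour.

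Both markers that met the rule were clear of every other library. en (2R, 11524006 to 11528210) had 65.7 and 74.7 RPKM in the aly libraries, against 0 RPKM in all libraries from the niche to EC, 1.92 to 3.78 RPKM in LC1 and 0 to 0.977 RPKM in LC2 libraries. trpl (2R, 9753697 to 9765518) had 75.1 and 68.4 RPKM in the aly libraries, against 0 RPKM from the niche to S16, 0 to 2.06 RPKM in EC, 1.71 to 3.06 RPKM in LC1 and 0 to 2.02 RPKM in LC2 libraries. trpl overlaps CG1690, on the other strand, which had an aly value of 170 RPKM, so its reads may in part be those of its neighbour.

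wg was not among the 173. It had 41.9 and 33.5 RPKM in the aly libraries, against 18.0 and 0.276 RPKM in the niche libraries, at most 1.38 RPKM in late libraries and 0 RPKM in all others. The niche mean of 9.12 RPKM kept it at a ratio of 3.83, and 82 of the 83 niche reads came from library a. Without the niche column it would have met the rule.

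**Figure D3:**
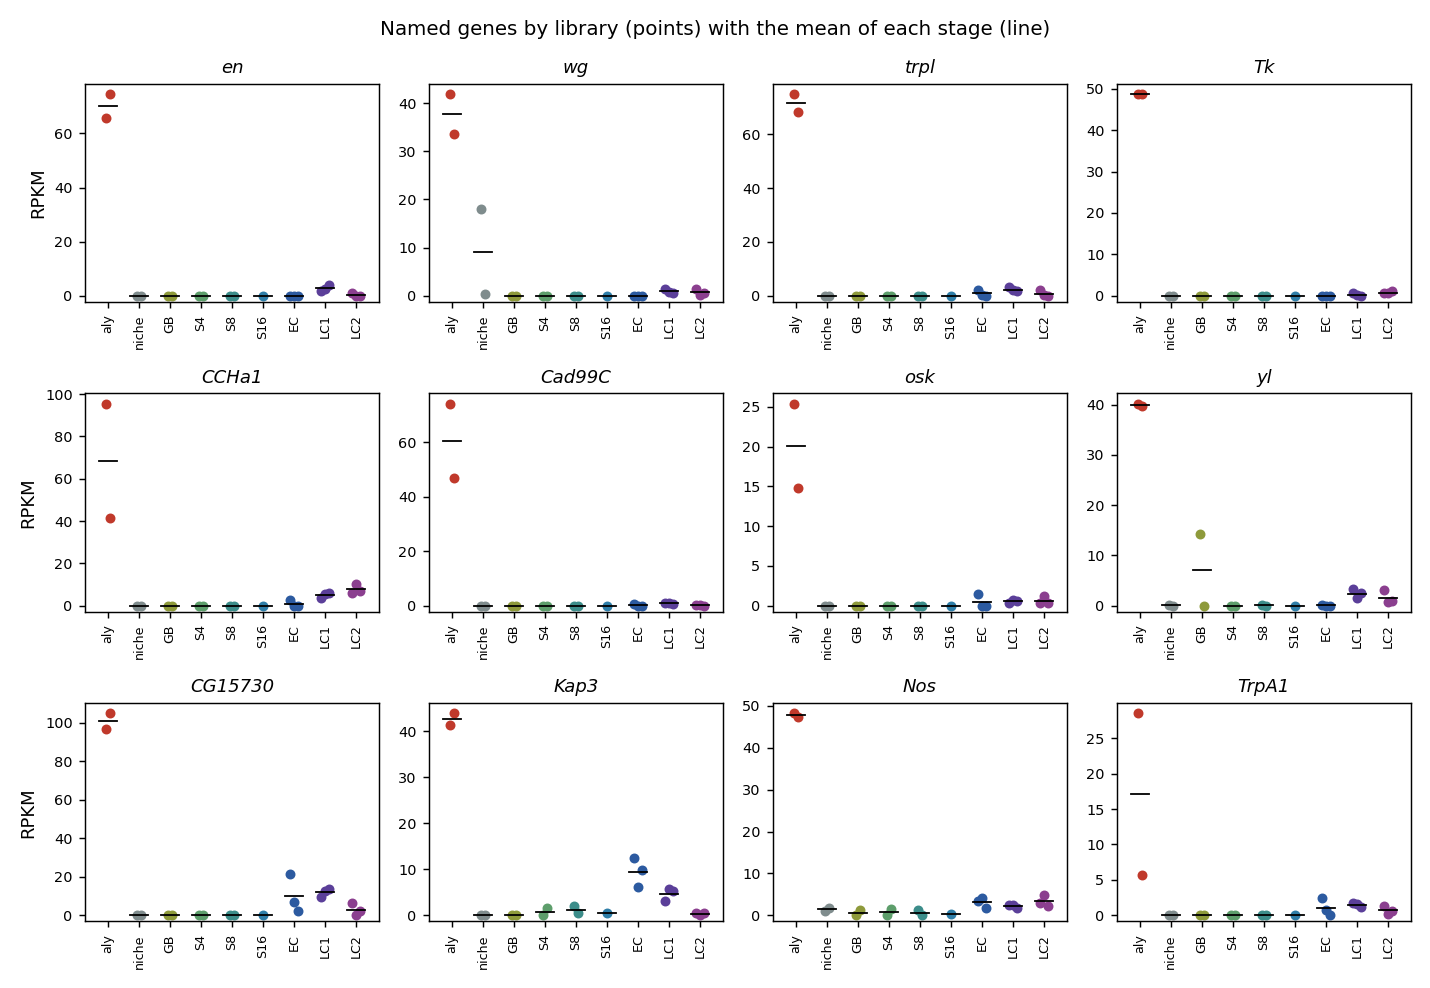
RPKM in each library (points) and the mean of each stage (line) for 12 genes. In each panel both aly libraries lie above all others, closest for wg (33.5 RPKM in aly against 18.0 RPKM in niche library a), yl and TrpA1.

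Members just inside and outside the limits had similar levels. CG31291, CG4017, CG43083 and CG18606 met the aly limit with 8.10 to 8.19 RPKM, while CG1942, Yp1, CG13579 and CG32260 missed it with 7.75 to 7.92 RPKM. CG31728, CG31220, CG7607 and CG15480 met the ratio with 4.04 to 4.16. lush, ham, CG31202 and Lrt missed it with 3.88 to 3.98, although ham, a zinc finger factor, had an aly value of 70.0 RPKM.

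The named members fell into groups that were drawn up after their values were known, covering 62 of the 173 genes. They are described by the roles the genes are known for elsewhere in the fly. Of the 173 genes, 108 are listed under a CG number, and 72 of the 160 found in the reference still are.

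Developmental transcription factors formed 1 group. Besides en it held Doc2 (a T-box factor of the dorsal ectoderm and heart), Rx (a homeodomain factor of the brain), tsh (a zinc finger factor of the trunk), disco (a zinc finger factor of head and leg), the bHLH factors Oli and Fer1, and amos, a proneural factor of the antenna. Their aly values ran from 11.5 to 70.2 RPKM with a median of 39.2 RPKM. Doc2 had 47.0 and 33.4 RPKM in the aly libraries, against 0 to 0.636 RPKM in EC and 0.439 to 1.83 RPKM in late libraries. Rx had 18.6 and 13.9 RPKM in the aly libraries, against 0 to 0.190 RPKM in EC and 0.210 to 1.01 RPKM in late libraries. tsh had 39.9 and 33.7 RPKM in the aly libraries, against 0.383 to 5.12 RPKM in spermatocyte libraries of the other stages and up to 12.8 RPKM in GB library a. All 8 were thus above every other library in both aly libraries, and 6 of them were listed at 0 from the niche to S16. The noncoding RNA bxd, of the bithorax complex, had an aly value of 15.3 RPKM but overlaps CG31275 on the same strand, with 29.8 RPKM.

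Genes of neuropeptides, transmitters and their receptors formed a group of 10. Tk encodes the tachykinin neuropeptides and had 48.7 and 48.8 RPKM in the aly libraries, against 0 RPKM from the niche to EC and 0 to 1.07 RPKM in late libraries. CCHa1, the CCHamide-1 neuropeptide, had 95.6 and 41.5 RPKM in the aly libraries, against 0 to 2.84 RPKM in EC and 3.43 to 10.2 RPKM in late libraries. The aly libraries differed 2.30-fold for it, and both remained above the late libraries. GABA-B-R1, a metabotropic receptor of GABA, had 60.3 and 72.1 RPKM in the aly libraries, against 2.89 to 9.98 RPKM in EC and 2.83 to 9.28 RPKM in late libraries. Nos, nitric oxide synthase, had 48.2 and 47.4 RPKM in the aly libraries, against 0 to 4.91 RPKM in the 18 others. The group also held Gad1 (glutamate decarboxylase, 19.3 RPKM in aly), stj (a calcium channel subunit, 18.0), Ast-CC (a neuropeptide, 9.74), nAcRalpha-30D (a nicotinic receptor subunit, 9.09), Glu-RIB (a glutamate receptor, 8.77 and identical in every stage to the member CG42509, so that both count as 1 measurement) and unc80. Neuronal markers summed over 11 genes to 42.1 and 29.5 RPKM in the aly libraries, against 60.9 to 81.2 RPKM in EC and 25.5 to 53.2 RPKM in late libraries, and 6 of the 11, elav among them, were under 1 RPKM in both aly libraries. Most of this sum is Syx1A, a syntaxin found also outside neurons. Without it, a split made after its values were seen, the other 10 genes summed to 20.9 and 9.96 RPKM in the aly libraries, against 12.1 to 12.7 RPKM in EC and 10.02 to 19.96 RPKM in late libraries. The synaptic gene n-syb had 11.6 and 3.43 RPKM in the aly libraries, against 0 to 1.29 RPKM in EC and 0.761 to 3.81 RPKM in late libraries. The active zone gene brp had 4.72 and 3.18 RPKM in the aly libraries, against 0 to 0.549 RPKM in EC and 3.93 to 10.96 RPKM in late libraries. The part of neurons in these levels was not tested.

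Photoreceptor genes and TRP channels among the 173 were trpl, chp, CG4468, CG42508, CG9317 and TrpA1. chp (chaoptin, an adhesion protein of photoreceptor membranes) had 38.5 and 28.5 RPKM in the aly libraries, against 0 to 2.15 RPKM in the 18 others. CG9317 (CarT, a carcinine transporter of photoreceptors) had 51.2 and 42.8 RPKM in the aly libraries, against 0 to 6.02 RPKM in the 18 others. CG4468 (Xport-A) and CG42508 (Xport-B), which act in the transport of TRP channels and rhodopsin, share a transcript and had identical values, so they count as 1 measurement of 8.51 RPKM. TrpA1, a heat-gated channel, had 28.5 and 5.72 RPKM in the aly libraries, against 0 to 2.47 RPKM in the 18 others. It was thus 4.98-fold apart between the aly libraries.

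Sensory channels of the pickpocket (ppk) family and chemosensory CheB proteins gave 7 genes with aly values of 8.34 to 35.7 RPKM, all listed at 0 from the niche to S16. They were ppk11, ppk16, ppk21, CG33289 (ppk5), CG18110 (ppk30), CheB53a and CheB98a. ppk11 and ppk16 share the same interval on 2L (9771155 to 9775030), so their reads may not be separate.

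Adhesion and guidance genes gave 10 members, with aly values of 10.8 to 60.6 RPKM. Cad99C, a cadherin of microvilli, had 74.3 and 47.0 RPKM in the aly libraries, against 0 to 0.425 RPKM in EC and 0 to 1.03 RPKM in late libraries. Cad88C, another cadherin, had 61.5 and 49.9 RPKM in the aly libraries, against 0 to 3.33 RPKM in the 18 others. Both overlap genes on the other strand with higher aly values, dgt1 (95.3 RPKM) and CG7886 (196 RPKM). Of the integrins, alphaPS4 had 48.1, betaInt-nu 26.3 and alphaPS5 17.8 RPKM in aly, against at most 2.15 RPKM in any other stage. kek4, Con, gogo, dpr9 and Tsp66E, cell surface proteins, made up the rest.

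Genes known from the oocyte and egg were osk, yl, Yp2, Vml and alphaTub67C. osk (oskar), which assembles germ plasm, had 25.4 and 14.8 RPKM in the aly libraries, against 0 to 1.51 RPKM in EC, 0.297 to 1.24 RPKM in late libraries and 0 RPKM from the niche to S16. yl (yolkless), the yolk receptor, had 40.2 and 39.7 RPKM in the aly libraries, against 0.629 to 3.33 RPKM in late libraries and 14.3 and 0 RPKM in the GB libraries. The maternal tubulin gene alphaTub67C had 13.6 and 18.1 RPKM in the aly libraries, against 0 to 1.92 RPKM in the 18 others. The yolk protein Yp2, also a fat body gene, had 8.53 and 10.9 RPKM in the aly libraries, against 2.61 RPKM in S8 library a and 0 to 0.197 RPKM in the 17 others.

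Of genes for cilia and kinesin transport, CG15730, CG4525 (Ttc26, a subunit of the ciliary transport complex), Klp54D (a kinesin) and Kap3 (the kinesin-II associated subunit) were members. Kap3 had 41.3 and 43.9 RPKM in the aly libraries, against 6.13 to 12.5 RPKM in EC, 3.08 to 5.68 RPKM in LC1, 0.107 to 0.493 RPKM in LC2 and 0 to 1.95 RPKM in the libraries from the niche to S16. Its levels in EC, LC1 and LC2 thus did not overlap.

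Enzymes of hormone, pigment and amine metabolism gave 8 members with aly values of 8.19 to 65.1 RPKM. Jhe (juvenile hormone esterase) had 18.4 and its neighbour Jhedup 50.8 RPKM in aly, e (ebony, of dopamine conjugation) 12.2 and Uro (urate oxidase) 14.8 RPKM. The arylalkylamine N-acetyltransferase genes CG18607 (AANATL4) and CG18606 (AANATL6), which lie 113 bases apart on 2R, were uneven between the aly libraries. CG18607 had 40.5 and 6.08 RPKM in the aly libraries, from 134 and 14 reads, and CG18606 had 13.5 and 2.89 RPKM, from 67 and 10 reads. Of the antimicrobial and seminal genes, dro3 (Drsl3) had 19.8 and 19.5 RPKM and dro6 (Drsl6) 6.32 and 16.7 RPKM in the aly libraries, and the seminal proteins Sfp51E and Acp63F had 15.2 and 10.7 RPKM in aly.

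The 2 aly libraries were unequal for some of these genes. Of the 173, 25 (14.5%) were over 2-fold apart on the scale of RPKM plus 1, 24 of them higher in library a, against 222 of 7636 genes (2.91%) with an aly value of at least 8, 218 of them higher in library a. The SD of the log2 difference was 0.63 over the 173 genes and 0.37 over the 7636. The genes rested on 27 to 3670 reads in the 2 libraries together, with a median of 408. The 7636 include the 173 and were not matched to them in level, and the part of level was not tested.

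**Figure D4:**
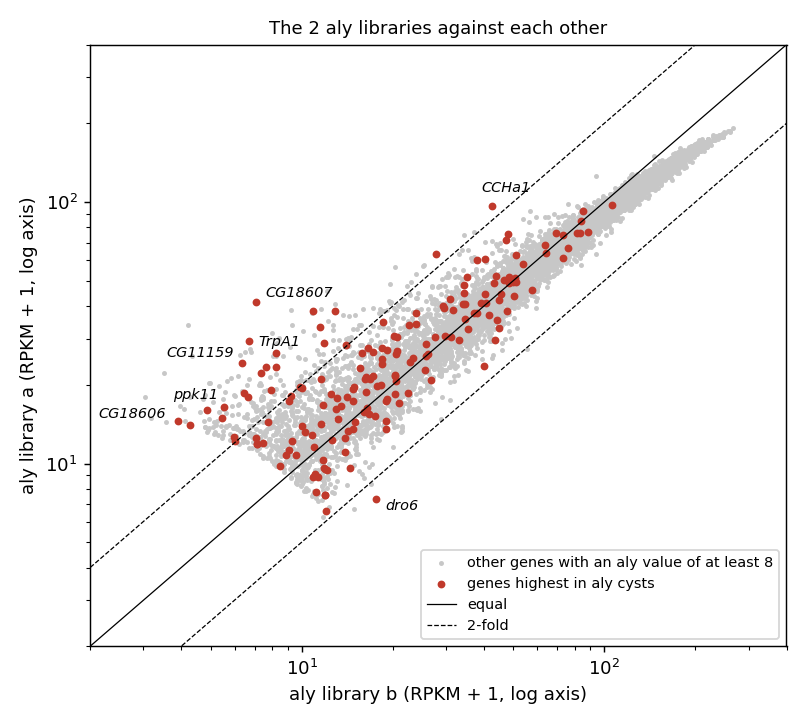
aly library a against aly library b (RPKM plus 1, log axes) for genes with an aly value of at least 8, with the 173 genes in red. Of the 173 genes, 24 lie beyond 2-fold in favour of library a, among them CG18607 and TrpA1, and 1, dro6, in favour of library b.

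By position, 160 of the 173 genes had coordinates in BDGP6.54. They lay on 2L (40 genes), 2R (34), 3R (34), 3L (27) and X (25). The share on 2L was 25.0%, against 18.6% of all genes, and the share on 3R was 21.2%, against 24.6% of all genes. Some lay side by side: 35 of the 160 (21.9%) had another member within 10 kb, against 5.84% of the other genes. On 3R, CG42508, CG4468, CG4465 and CG4770 followed each other between 19914320 and 19920584. On 2L, CG7191, CG7179 and Uro lay between 7767628 and 7781415, and CG17127, CG31869 and Nos between 10770868 and 10837511. CG42347 (sqa) lay 5575 bases from trpl. In all, 29 members overlapped a gene with the same or a higher aly value. Whether the counting used the strand is not given in the sources used here, so reads of overlapping genes cannot be told apart, and a shared read would also make neighbours alike.

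Differences among the other stages were not used by the rule, although it held each stage at least 4-fold under the aly level and so kept nearly all members low there. They were tested with limma over 12459 genes, with calls at an adjusted p under 0.05 and a mean of at least 8 RPKM on the higher side. Only 5 members reached that level in EC against spermatogonia (S4, S8 and S16). All 5 were called higher in EC than in the mean of these stages: CG15730, Kap3, Oli, CG3160 and dia, a formin that nucleates actin. These are 2.89% of the 173, against 22.1% of all genes tested called higher, and 0 members were called lower, also at an unadjusted p under 0.05 in limma, against 7.07%. Kap3 averaged 9.48 RPKM in EC and 0.924 RPKM in spermatogonia (log2 difference 2.51 ± 0.37 (SE), adjusted p = 7.59e-05 by limma). CG15730 averaged 10.1 RPKM in EC and 0 RPKM in spermatogonia (3.04 ± 0.60, adjusted p = 0.000871 by limma), a value that depends on the 1 added to each RPKM. EC library a was high for CG15730 (21.3 RPKM) and Oli (20.8 RPKM), and without it dia alone of the 173 was called. Without it the EC means of CG15730, Oli and Kap3 fell under 8 RPKM. Oli had 10.9 RPKM in the S16 library, against 4.34 and 3.13 RPKM in EC libraries b and c. CG3160 had 10.5 RPKM in S16 and 8.46 RPKM in S8 library b, against 11.4 to 17.2 RPKM in EC. The call of CG3160 was lost without S8 library a, and those of CG3160 and dia without EC library b. Leaving out EC library b also put the mean of dia under 8 RPKM. With no minimum level, 48 members were called higher and 0 lower, against 31.8% and 7.52% of all genes. That is 27.7% of the 173, below the share of all genes. In simulated data with 200 of 12784 genes changed, 26.3% of such calls were false. Far more genes were called here, so that share need not hold, and the calls are given as counts.

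In late spermatocytes (LC1 and LC2) against EC, only 5 members reached 8 RPKM on a side, so the others could not be called. With this minimum level Kap3 fell and 0 members rose, also 0 at an unadjusted p under 0.05 in limma. Of all genes 20.1% were called lower and 23% higher with it. Kap3 averaged 2.93 RPKM in late and 9.48 RPKM in EC libraries (log2 difference -1.70 ± 0.36, adjusted p = 0.00108 by limma), a call that was lost without EC library a. Its EC mean then fell under the minimum level. Without EC library b or without EC library c, 3 members were called in place of 1. With no minimum level 36 members (20.8%) were called higher and 13 (7.51%) lower, against 30% and 21.4% of all genes. Of such calls 20.4% were false in data simulated in the same way, a share that need not hold here. The 36 included en (1.73 RPKM in late and 0 RPKM in EC libraries, adjusted p = 0.000923 by limma), disco (5.09 and 1.17 RPKM, 0.000625), CCHa1 (5.96 and 0.947 RPKM, 0.000620) and CG13842 (6.77 and 0.796 RPKM, 0.000387). The 13 included Kap3, Klp54D and the proneural gene amos. These low levels in late spermatocytes were still at most 10.2 RPKM for CCHa1 and 3.78 RPKM for en in any library, against at least 41.5 and 65.7 RPKM in the aly libraries.

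Between the late sets, LC2 against LC1, only 5 members reached 8 RPKM on a side, so the others could not be called. With this minimum level 0 members passed, against 1.12% of all genes higher and 3.37% lower. At an unadjusted p under 0.05, 2 members with that level passed in limma, CG13842 and CG15730, both lower. Without LC2 library a, or with EC library a left out of the shared spread, 2 were called. With no minimum, dro3 was called higher and 5 members lower, against 1.41% and 4.06% of all genes. The 5 were Kap3, CG6201, Cad88C, en and CG14431. en averaged 0.326 RPKM in LC2 and 2.67 RPKM in LC1 (log2 difference -1.51 ± 0.30, adjusted p = 0.00891 by limma).

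**Figure D5:**
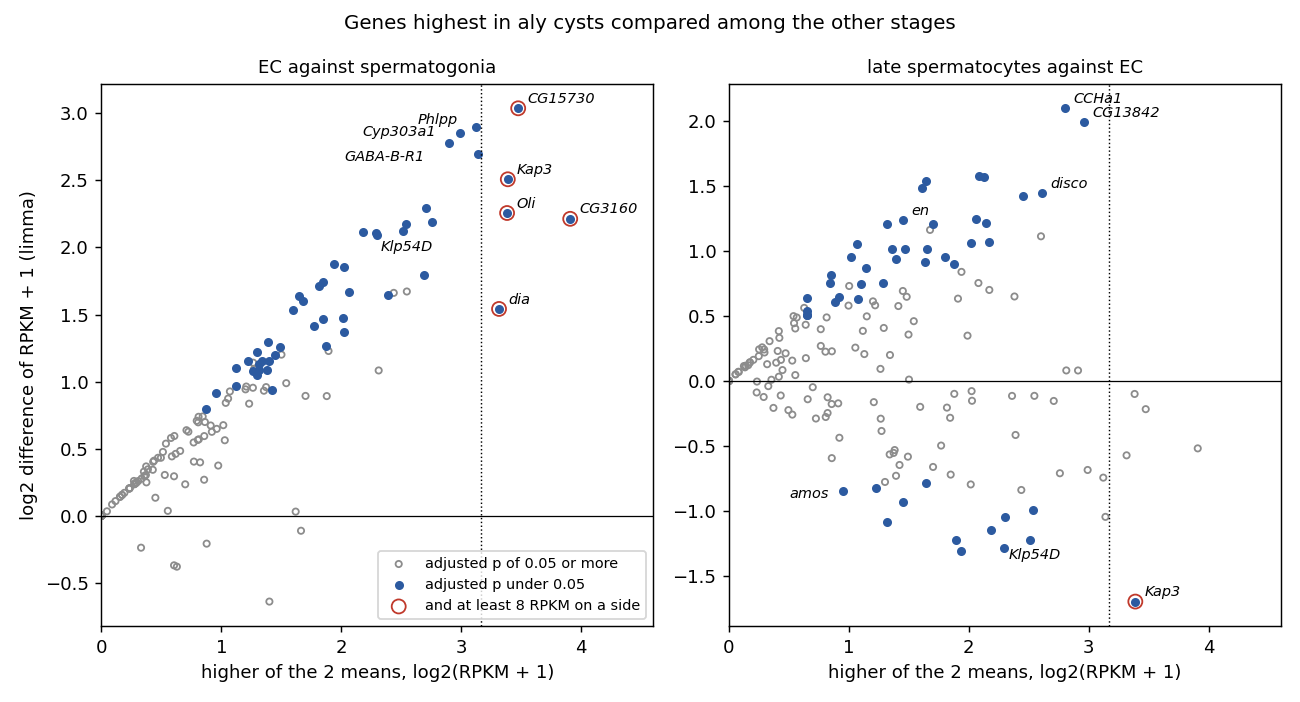
limma log2 difference of RPKM + 1 for the 173 genes against the higher of the 2 means, in EC against spermatogonia (left) and in late spermatocytes against EC (right). The dotted line marks 8 RPKM. Only 5 genes are called to its right on the left panel, and only Kap3 on the right panel.

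Lists of transcription factors and pathways to which en, wg and trpl belong were compared to see how far their relatives followed. In aly against EC 8.46% of all genes tested were called higher and 7.12% lower, and in aly against late spermatocytes 13.3% higher and 17.4% lower. These shares include the 173 genes, of which 172 and 173 were called higher. Members are counted apart, because the rule used these comparisons. Genes outside the rule did not meet its limits, which by construction leaves fewer of them to be called higher. These comparisons share the aly libraries. Counts at an unadjusted p are given for description, and the share of all genes at that p is not given here.

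Of the homeotic and segmentation factors, 25 outside the rule were tested. cad (caudal, a posterior factor) and btd (buttonhead, a head factor) were higher in aly than in EC, and 0 were lower. At an unadjusted p under 0.05 in limma with no minimum level, 9 were higher and 0 lower. Against late spermatocytes btd alone was higher and 0 were lower. At an unadjusted p under 0.05 with no minimum level in limma, 3 were higher and 12 lower. Both calls of btd were lost without aly library a. cad averaged 138 RPKM in aly and 22.7 RPKM in EC (log2 difference 2.99 ± 0.63, adjusted p = 0.00342 by limma). In late libraries it was at 51.9 to 118 RPKM, against 126 and 149 RPKM in the aly libraries. inv, the paralogue of en, did not follow it. It had 2.33 and 1.29 RPKM in the aly libraries, against 1.75 to 11.7 RPKM in late and 0.181 to 0.272 RPKM in EC libraries. The homeotic gene Ubx had 0.864 and 0.458 RPKM in the aly libraries.

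Of the limb, neural and organ factors, 47 outside the rule were tested. C15, dac and Ptx1 were higher in aly than in EC, and 0 were lower. At an unadjusted p under 0.05 in limma with no minimum level, 23 were higher and 1 lower. Against late spermatocytes C15 and Ptx1 were higher, and 9 were lower: B-H2, salm, salr, D, bowl, Doc1, Lim3, lbe and eg. At the same unadjusted p, 13 were higher and 15 lower. Without aly library a the calls of C15 in both comparisons and of Ptx1 against late spermatocytes were lost, without aly library b those of C15, bowl and Lim3 against late spermatocytes, and without LC1 library a that of lbe. The calls of C15 against EC and of lbe were lost only because the higher mean fell under 8 RPKM. Doc1, next to Doc2 in the same T-box family, had 5.88 and 4.61 RPKM in the aly libraries, against 50.6 to 134 RPKM in late libraries (log2 difference -3.75 ± 0.51, adjusted p = 2.7e-05 by limma). D (Dichaete, a Sox factor) had 0.762 and 0.398 RPKM in the aly libraries, against 28.4 to 54.7 RPKM in late libraries. dac was at 18.0 and 20.3 RPKM in the aly libraries, against 8.49 to 24.1 RPKM in late libraries, which overlap.

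Of the Wnt list all 29 genes were outside the rule. wg, Wnt4 and the co-receptor gene arr were called higher in aly in both comparisons, and arm, the beta-catenin gene, lower in aly than in EC. The calls of arr and arm against EC were lost with either aly library left out, without EC library b and without EC library c, and those of arr and Wnt4 against late spermatocytes with either aly library left out. Without aly library a, the calls over these lists in aly against EC, 21 with members, fell to 13. wg was named with the 173 genes for its level in aly, so its values are a description and its call is no independent evidence. It averaged 37.7 RPKM in aly, against 0 RPKM in EC and 0.811 RPKM in late libraries. Wnt4 had 23.2 and 19.8 RPKM in the aly libraries, against 0.279 to 2.79 RPKM in EC, 2.98 to 8.28 RPKM in late and 31.0 and 38.6 RPKM in the niche libraries. arr had 77.1 and 77.6 RPKM in the aly libraries, against 19.2 to 27.3 RPKM in EC and 10.8 to 35.6 RPKM in late libraries. Of the Hedgehog list, 13 genes were tested. boi (a co-receptor) was higher in aly in both comparisons, rasp (an acyltransferase) was lower against EC and ttv lower against late spermatocytes. Both calls of boi were lost with 0.1 instead of 1 added to each RPKM. The call of rasp was lost with either aly library left out, without EC library b and without EC library c. The ligand gene hh averaged 5.52 RPKM in aly and 2.70 RPKM in EC (adjusted p = 0.136 by limma).

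Of the phototransduction and TRP list, 26 genes outside the rule were tested. trpgamma, ninaA and pyx were higher in aly than in EC, and 0 were lower. At an unadjusted p under 0.05 in limma with no minimum level, 12 were higher and 0 lower. The call of pyx was lost with either aly library left out, without EC library b and with quantile scaling, and pyx had 10.3 and 10.1 RPKM in the aly libraries, against 30.5 and 21.4 RPKM in the niche libraries. Against late spermatocytes trpgamma was higher, and the rhodopsin genes Rh4 and Rh5 and the lipid transfer gene rdgB were lower. The call of Rh4 was lost with either aly library left out. At the same unadjusted p, 7 were higher and 3 lower than in late spermatocytes. ninaA, a rhodopsin chaperone, had 26.2 and 19.0 RPKM in the aly libraries, against 0 to 2.63 RPKM in EC and 27.2 to 71.6 RPKM in late libraries. Rh5 had 2.99 and 1.08 RPKM in the aly libraries, against 15.6 to 43.6 RPKM in late libraries. The main rhodopsin of the eye, ninaE, had 2.55 and 0.551 RPKM in the aly libraries, against 0 to 2.32 RPKM in the 18 others. Rh2, the rhodopsin of the ocelli, had 9.71 and 9.66 RPKM in the aly libraries, against 0 to 7.23 RPKM in EC and 0 to 6.73 RPKM in late libraries. Its difference from EC did not pass (log2 difference 2.19 ± 0.78, adjusted p = 0.0612 by limma).

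Repressors known to keep genes of other tissues off in spermatocytes were listed as well. CG5204 (kmg), a zinc finger protein, averaged 117 RPKM in aly and 145 RPKM in EC (log2 difference -0.29 ± 0.99, adjusted p = 0.897 by limma). CG30401 (dany) was lower, at 51.5 and 49.5 RPKM in the aly libraries, against 108 to 157 RPKM in EC (log2 difference -1.35 ± 0.42, adjusted p = 0.0320 by limma), a call that was lost with either aly library left out, without EC library a, without EC library b and with scaling to total reads. It lay at 43.1 to 77.8 RPKM in late libraries. Mi-2, a chromatin remodeller, was higher in aly than in late spermatocytes, at 124 and 161 RPKM in the aly libraries, against 8.55 to 57.3 RPKM (log2 difference 2.21 ± 0.34, adjusted p = 9.59e-05 by limma). Against EC it was not called, with means of 143 RPKM in aly and 116 RPKM in EC. simj, also on this list, averaged 85.0 RPKM in aly and 74.6 RPKM in EC. Of the 4 repressors, 0 were called higher in aly than in EC.

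Markers of other cells were summed beside these results. The 10 haemocyte and fat body genes summed to 89.2 and 88.6 RPKM in the aly libraries, against 38.3 to 60.2 RPKM in EC and 39.6 to 358 RPKM in late libraries. From the niche to S16 they summed to 8.36 to 146 RPKM, highest in S4. Within that list, which also holds the member Yp2, Hml and Pxn, haemocyte genes, were higher in aly, Pxn at 34.9 and 38.1 RPKM in the aly libraries, against 0 to 1.12 RPKM in EC and 1.13 to 7.96 RPKM in late libraries. The haemocyte genes He (0.909 and 0 RPKM in the aly libraries) and srp (1.03 and 0.264 RPKM) were low, and the fat body genes Lsp2 and Fbp1 were called lower in aly than in EC, calls lost without aly library a or EC library b. Without EC library b the call of Fbp1 was lost only because its EC mean fell under 8 RPKM. The 9 muscle genes summed to 35.1 and 24.9 RPKM in the aly libraries, against 2.85 to 4.91 RPKM in EC and 11.6 to 40.9 RPKM in late libraries. Their sum was 25.6 to 286 RPKM in libraries from the niche to S8 and 15.8 RPKM in S16. Of the muscle genes, Mlc1 was called higher in aly in both comparisons, and 0 were called lower. Mlc1 averaged 9.60 RPKM in aly, 0 in EC, 0.884 in LC1 and 1.70 in LC2, but 36.4 RPKM in S4. The 4 tracheal and cuticle genes summed to 34.8 and 20.6 RPKM in the aly libraries, against 3.01 to 10.9 RPKM in EC, 5.02 to 48.3 RPKM in late libraries and 0 to 13.6 RPKM from the niche to S16. Of these, verm was called higher in aly (11.2 RPKM) than in EC (0.413 RPKM), and 0 were called against late spermatocytes. The call of verm was lost without aly library a and with quantile scaling, and its LC1 mean was 23.6 RPKM. The 5 hub genes (11.1 to 19.1 RPKM in aly, against 9.03 to 23.5 RPKM in EC and 26.9 to 55.6 RPKM in late libraries), the 6 cyst cell genes (37.5 to 45.9 RPKM in aly, against 29.8 to 62.2 RPKM in EC and 54.3 to 136 RPKM in late libraries) and the 4 accessory gland genes (1.13 to 3.73 RPKM in aly, against 3.21 to 11.1 RPKM in EC and 30.6 to 77.8 RPKM in late libraries) lay within, or overlapped the lower end of, the range of EC, and lay below every late library. The part of haemocytes, muscle or tracheal cells in the levels of the 173 genes was not tested. Fewer cells of a type and less RNA per cell cannot be told apart in these libraries.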

How the data were processed

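The deposited table holds 1 RPKM value per gene and stage, which the authors made as the mean over the libraries of a stage; its title line calls the values cRPKM. Bowtie 0.12.7 and edgeR are named in the submitters' processing notes, with no role. No source used here names the annotation used for counting. Per the labels' protocols, RNA was reverse transcribed with oligo-dT, tailed and amplified with a universal primer. Reads per library were recovered from the steps in the deposited RPKM means, which gave whole reads for 12784 of 12810 genes. The library number of each stage was set before this step. In simulated data the step was right for 300 of 300 genes. That simulation was given the library numbers, the library sizes and a length near the true one, so it tests none of these. A gene's reads and length are known only up to a common factor, which leaves RPKM unchanged. The recovered length was within 5% of the annotated length for 8415 of 12208 genes. Depths ran from 858576 to 5337856 recovered reads, and limits from a count of 3 reads cover counting error only.

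log2(RPKM + 1) was fitted with limma 3.58.1 in R 4.3.3, over 12459 genes at or above 1 RPKM in at least 2 libraries. The fit used 9 group means and a shared spread with a mean trend, and p-values were two-sided with Benjamini-Hochberg adjustment over all genes. The single S16 library is assumed to vary like the others. Spermatogonia were weighted 2:2:1 over S4, S8 and S16, and late spermatocytes 3:2 over LC1 and LC2, by labelled libraries, while the fit holds 3 LC2 libraries. Fold changes on this scale understate the change of low genes. Simulated 4-fold changes were recovered in 95 to 99.5% of cases over the 5 comparisons. With the minimum level 1.02 to 7.87% of the simulated calls were false. The simulation changed 200 of 12784 genes, drawn at a mean of at least 8 RPKM, so it does not cover lower genes. Tables used Python 3.11.15, numpy 2.4.6, pandas 2.3.3, numba 0.67.0 and matplotlib 3.10.9.

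The genes and lists were chosen with earlier results of these data known, and the functional groups after the values were seen. Named genes are en, wg and trpl, the 12 highest in aly, the 8 with the largest ratio, those nearest the limits, those called between other stages, neighbours, and list genes with the largest differences; other genes are named as examples of their group. Positions come from the Ensembl annotation of BDGP6.54, which held 160 of the 173 gene IDs.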

Additional observations from a re-analysis of the deposited data

How the results depend on the processing

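The number of genes that met the rule was 173. It became 106 with an aly value of at least 16, 71 with a ratio of 8, 445 with a ratio of 2, 262 with stages scaled to the same total and 110 with quantile scaling, and 80 when the rule was put on single libraries, an alternative chosen after seeing the data. The 262 hold all 173, and the 110 hold 79 of them. Members called in EC against spermatogonia numbered 5, and 48 with no minimum level, 3 scaled to total reads and 1 with quantile scaling. Leaving out 1 library gave 1 to 8, the lowest without EC library a and the highest without EC library c. In late against EC 1 was called, and 49 with no minimum and 2 with quantile scaling, with 0 to 3 when a library was left out. In LC2 against LC1 0 were called, and 6 with no minimum, with 0 to 2 when a library was left out. List genes called in aly numbered 21 against EC and 28 against late spermatocytes, and 50 and 62 with no minimum. Of the 50, 46 were higher in aly and 4 lower. Of the 62, 32 were higher and 30 lower. The 21 and 28 ranged from 13 to 23 and from 21 to 30 when a library was left out. With 0.5 added to each RPKM they became 20 and 28, and with 0.1 added 19 and 21. With 0.1 the calls of arr and boi against EC were lost. Against late spermatocytes those of arr, boi, btd, C15, Wnt4, Rh4 and rdgB were lost with 0.1. Of the marker calls, those of aly and Lsp2 against EC and of Hml against late spermatocytes were also lost with 0.1. The causes were not tested, other than that a wider or narrower limit by construction admits more or fewer genes. Quantile scaling moved the median log2 difference of all genes by -0.61 in EC against spermatogonia, -0.43 in late against EC, -0.26 in aly against EC and 0.28 in aly against late. Scaling to total reads moved it by -0.27 in EC against spermatogonia and 0.17 in aly against late. No paired analysis was possible because the recovered libraries carry no replicate number of the labels.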
